A study of Mus musculus with 2 samples.

Results

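The 4 receptors of the epidermal growth factor (EGF) receptor family, Egfr, Erbb2, Erbb3 and Erbb4, and 6 of their ligands, Areg, Ereg, Hbegf, Tgfa, Btc and Nrg1, were followed in the mouse sigmoid colon. These 10 genes were picked by symbol from the 43346 Ensembl genes of the deposited tables, and all 10 were found. Polyadenylated RNA came from the sigmoid colon of 1 adult female C57BL/6J mouse aged 10 weeks, extracted with a kit for fatty tissue. It was sequenced as 2 technical libraries, named library 2 and library 1 by the replicate number on their labels, of which library 2 was made later. The labels name no treatment and no mutation, and there was no other animal. Every ± on a level or share is an SD over these libraries (n = 2, technical), and each test compares the reads of these libraries and not mice or conditions.

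Receptors of this family sit in the cell membrane, pair up when a ligand binds and then phosphorylate each other. Egfr binds the products of Areg, Ereg, Hbegf, Tgfa and Btc. Erbb2 has no known ligand of its own and acts as a partner of the others, Erbb3 binds neuregulins but has an impaired kinase, and Erbb4 binds neuregulins and several of the EGF-type ligands. The ligands are made as membrane-anchored precursors and are cut free by metalloproteases. In the intestine this signalling is known for driving division of crypt cells and repair of the epithelium.

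All of these ligands carry an EGF-like domain, a fold held together by 6 cysteines, which is the part that touches the receptor. The coding stretch of this domain is shown for the 3 ligands that lie together on chromosome 5 (Areg, Ereg and Btc) and for Tgfa, because Tgfa led the ligands in library 2 and Btc, a neighbour of Areg and Ereg, led them in library 1. Sequences are from GENCODE M21 transcripts on GRCm38, 5′ to 3′, and capitals mark the codons of the 6 cysteines.
Areg: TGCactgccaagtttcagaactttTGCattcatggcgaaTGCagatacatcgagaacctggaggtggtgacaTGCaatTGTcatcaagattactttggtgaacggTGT
Ereg: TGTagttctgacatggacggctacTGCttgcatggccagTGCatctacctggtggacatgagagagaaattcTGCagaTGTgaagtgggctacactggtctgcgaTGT
Btc: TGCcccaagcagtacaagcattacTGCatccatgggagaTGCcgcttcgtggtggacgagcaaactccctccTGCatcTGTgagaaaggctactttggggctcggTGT
Tgfa: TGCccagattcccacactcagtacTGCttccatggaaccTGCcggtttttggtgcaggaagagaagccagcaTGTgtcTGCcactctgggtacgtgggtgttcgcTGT
Each stretch is 108 bases, or 36 codons, with the cysteine codons at the same places. They lie at chr5:91143614-91144364 on the plus strand for Areg, chr5:91088496-91089111 on the plus strand for Ereg, chr5:91362421-91366197 on the minus strand for Btc and chr6:86263200-86269960 on the plus strand for Tgfa, each span holding an intron. Of the 6 pairs, Tgfa and Btc were the most alike with 62.0% identical bases, and Ereg and Tgfa the least with 45.4%. The stretch had 50.9% G and C bases (GC content) in Ereg and 55.6% in Btc. The whole transcripts of these genes, of which 11.8% is coding for Ereg and 18.5% for Btc, had lower GC contents of 39.2% for Ereg and 40.6% for Btc.

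Library 2 held 20681574 expected counts (reads assigned to genes by the authors' model) and library 1 held 25843064. Genes of the mitochondrial chromosome took 5.59% of the counts in library 2 and 24.1% in library 1. TPM, the authors' length-corrected level that sums to the same total in each library, is squeezed by that share. Nuclear protein-coding genes held 75.3% of all TPM in library 2 and 31.3% in library 1. TPM over nuclear protein-coding genes alone, called nuclear TPM here, is therefore given beside the deposited TPM where it turns the direction of a level. The square root of the common dispersion over both libraries was 94.8%, a spread between them far beyond counting error. Epithelial markers summed to 8222 TPM in library 2 and 1006 TPM in library 1, and none of the 8 was at 0. Their summed nuclear TPM was 10913 in library 2 and 3210 in library 1. Krt8, Krt18, Krt19, Krt20, Vil1 and Cldn7 were higher in library 2 on that scale. Epcam (1268 in library 2 and 1440 in library 1) and Cdh1 (562 in library 2 and 622 in library 1) were lower there. Smooth muscle markers summed to 4791 TPM in library 2 and 327 TPM in library 1 and fibroblast markers to 837 TPM in library 2 and 661 TPM in library 1 (1111 nuclear TPM in library 2 and 2111 in library 1), so markers of the muscle coat and of connective tissue were present beside those of epithelium. Macrophage markers summed to 120 TPM in library 2 and 27.0 TPM in library 1, enteric neuron markers to 38.5 TPM in library 2 and 8.29 TPM in library 1, mesothelial markers to 6.71 TPM in library 2 and 0.75 TPM in library 1, and skeletal muscle markers to 31.9 TPM in library 2 and 0.21 TPM in library 1. Of the skeletal muscle markers, Ckm was at 15.65 TPM in library 2 and 0.03 TPM in library 1, and Acta1 at 15.26 TPM and 0. Tnnt3 was at 0.95 TPM in library 2 and 0.18 TPM in library 1, and Myh4 was at 0 in both. The part of all these cell type markers in the member results was not tested. Of the 5 squamous epithelium markers none was at 0 in library 2 and 3 (Krt5, Krt14 and Krt13) were at 0 in library 1, with sums of 1.29 TPM in library 2 and 0.06 TPM in library 1.

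Erbb3 had the highest level of the 10 genes in both libraries. It was at 139 TPM in library 2 and 57.3 TPM in library 1 (98.0 ± 57.5), from 11621 expected counts in library 2 and 8045 in library 1. Over nuclear protein-coding genes alone the levels were 184 TPM in library 2 and 183 TPM in library 1, at percentile 96.2 of those genes in library 2 and 94.9 in library 1, so on that scale the libraries nearly met. The log2 ratio of scaled counts was 0.10 ± 0.02 (adjusted p = 1.75e-06, exact binomial test), short of the 2-fold minimum for a call, and it was -0.55 with the trend on GC content (described for Erbb2) taken off. A single annotated transcript of 6016 bases, Erbb3-201, accounts for the gene (chr10:128567523-128589652, minus strand, GRCm38). The 4 enteric glia markers summed to 13.3 TPM in library 2 and 4.41 TPM in library 1. By scaled counts 3 of 4 were higher in library 2 and 1 lower, where 36.9% of all genes tested were higher and 28.1% lower. With the GC trend taken off, 1 was higher and 0 lower (12.4% and 11.0% of all genes), with a median log2 ratio of -0.0029. The part of these markers in the level of Erbb3 was not tested. In bulk tissue such as this, a level cannot tell the number of cells of a type from the RNA per cell. The libraries are technical replicates of the same mouse, so a difference between them is not read as either.

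Erbb2 was the member that differed most between the libraries. It was at 76.4 TPM in library 2 and 1.89 TPM in library 1 (39.2 ± 52.7), from 5153 expected counts in library 2 and 219 in library 1. Scaled counts were 17.4-fold higher in library 2, a log2 ratio of 4.12 ± 0.10. The error of a log2 ratio, here and further on, is an SE of counting alone. The adjusted p of the exact binomial test was too small for the computer's number format. Erbb2 has the highest GC content of the 10 genes, at 57.4% (chr11:98412470-98437716, plus strand). Across all genes tested, the ratio of library 2 over library 1 climbed with GC content, and at the GC content of Erbb2 the trend stood at 3.67. With that trend taken off, the log2 ratio of Erbb2 was 0.46 and no longer reached the 2-fold minimum. Epithelial markers moved the same way, with 5 of 8 higher, 0 lower and a median log2 ratio of 1.91 (0.52 with the GC trend taken off, 2 higher and 2 lower). Smooth muscle markers did so too, with 6 of 6 higher and a median of 2.79 (1.55 with the GC trend taken off, 5 higher and 0 lower), as did 3 of 5 macrophage markers, with 1 lower and a median of 2.99 (0.31 with the GC trend taken off, 2 higher and 0 lower). Fibroblast markers did not, with 1 of 6 higher, 2 lower and a median of -0.52. With the GC trend taken off their median was -0.66, with 0 higher and 3 lower. Over all genes tested 36.9% were higher and 28.1% lower, or 12.4% and 11.0% with the GC trend taken off. The part of these markers in the Erbb2 result was not tested. Mien1 overlaps Erbb2 on the opposite strand and had 872 expected counts in library 2 and 249 in library 1. The strand setting of the counting is not given in the sources used here, although signal tracks split by strand are listed for both libraries.

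Egfr (chr11:16752203-16918158, plus strand) was at 15.04 TPM in library 2 and 9.83 TPM in library 1 (12.4 ± 3.68), from 1416 expected counts in library 2 and 2204 in library 1. Its nuclear TPM was 19.96 in library 2 and 31.4 in library 1. By scaled counts it was 2.10-fold lower in library 2 (log2 ratio -1.07 ± 0.05, adjusted p = 3.34e-107 by the exact binomial test), while by deposited TPM it was higher there (log2 ratio of TPM 0.61). The direction therefore depends on the scale. The authors' effective length of Egfr was 6556 bases in library 2 and 9311 bases in library 1. Deposited TPM and nuclear TPM both divide by that length. The part of the length in the change of direction was not tested. With the GC trend taken off, the log2 ratio was -0.28, and with a trend on transcript length taken off it was -0.46, both under 2-fold.

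Erbb4 (chr1:68032186-69108059, minus strand) had very few reads. It had 1 expected count in library 2 (exact Poisson 95% interval 0.0253 to 5.57) and 5 in library 1 (1.62 to 11.7), or 0.01 TPM in library 2 and 0.02 TPM in library 1. The scaled ratio of library 2 over library 1 was 0.149, with an exact interval of 0.00314 to 1.33 that includes equality. Their mean falls short of the 10 required for testing, so Erbb4 entered no test.

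Receptor RNA was thus mostly Erbb3, with Erbb2 or Egfr next depending on the library. Erbb3 made up 60.2% of the summed TPM of the 4 receptors in library 2 and 83.0% in library 1 (71.6 ± 16.1%). The share of Erbb2 was 33.2% in library 2 and 2.74% in library 1, and that of Egfr was 6.54% in library 2 and 14.2% in library 1. Erbb2 stood at 5.08 times the TPM of Egfr in library 2 and at 0.192 times in library 1, so the order of these receptors turned round. Erbb4 was at 0.00435% in library 2 and 0.0290% in library 1.

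**Figure D1:**
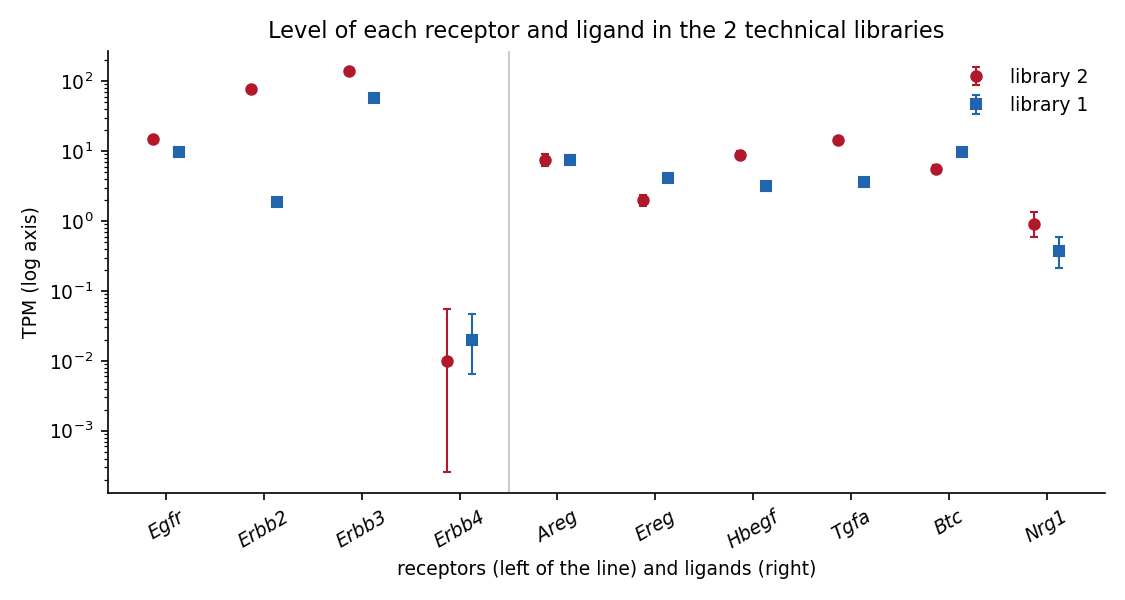
TPM of each receptor and ligand on a log axis in library 2 (red circles) and library 1 (blue squares); bars are exact 95% Poisson intervals of the expected count scaled to TPM and cover counting error only. Erbb3 is highest in both libraries, Erbb2 is at 76.4 TPM in library 2 and 1.89 TPM in library 1, and Erbb4 is at 0.02 TPM or less.

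Tgfa (chr6:86195223-86275719, plus strand), an Egfr ligand made by the gut epithelium, was at 14.3 TPM in library 2 and 3.63 TPM in library 1 (8.97 ± 7.54). It had 680 expected counts in library 2 and 347 in library 1, and by scaled counts the log2 ratio was 0.54 ± 0.10, short of 2-fold (adjusted p = 1.28e-08, exact binomial test). Tgfa ranked first of the 6 ligands in library 2, and in library 1 it stood below Btc, Areg and Ereg. Its log2 ratio was -0.67 with the GC trend taken off, a change of sign. Hbegf (chr18:36504927-36515805, minus strand), a heparin-binding Egfr and Erbb4 ligand, was at 8.88 TPM in library 2 and 3.14 TPM in library 1 (6.01 ± 4.06), from 280 expected counts in library 2 and 165 in library 1. Its log2 ratio of scaled counts was 0.33 ± 0.14 (adjusted p = 0.0232, exact binomial test), also short of 2-fold, and -0.14 with a trend on transcript length taken off.

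Amphiregulin, encoded by Areg, is a low-affinity Egfr ligand. Areg (chr5:91139599-91148432, plus strand) had the TPM ratio nearest to equality of the 10 genes, at 7.57 TPM in library 2 and 7.52 TPM in library 1 (7.55 ± 0.0354). Its counts differed all the same. There were 111 expected counts in library 2 and 183 in library 1, and scaled counts were 2.22-fold lower in library 2 (log2 ratio -1.15 ± 0.17, adjusted p = 3.21e-11, exact binomial test). The log2 ratio was -2.46 with the trend on transcript length taken off and -0.88, under 2-fold and no longer called, with the GC trend taken off. Over nuclear protein-coding genes alone Areg was at 10.0 TPM in library 2 and 24.0 TPM in library 1.

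Epiregulin (Ereg) and betacellulin (Btc), which both bind Egfr and Erbb4, were lower in library 2. Ereg (chr5:91074622-91093646, plus strand) was at 1.99 TPM in library 2 and 4.18 TPM in library 1 (3.09 ± 1.55). It had 113 expected counts in library 2 and 397 in library 1, and scaled counts were 4.72-fold lower in library 2 (log2 ratio -2.24 ± 0.15, adjusted p = 2.02e-58, exact binomial test). Btc (chr5:91357261-91402994, minus strand) was at 5.63 TPM in library 2 and 9.70 TPM in library 1 (7.67 ± 2.88). It had 218 expected counts in library 2 and 628 in library 1, and scaled counts were 3.87-fold lower in library 2 (log2 ratio -1.95 ± 0.11, adjusted p = 7.52e-77, exact binomial test). These are the GC-poorest members that could be tested, and the trend of all genes stood at -2.12 at the GC content of Ereg and at -1.91 at that of Btc. With the trend taken off, their log2 ratios were -0.11 and -0.05, with adjusted p = 0.572 and 0.768 by the exact binomial test. Neither was called any longer. Areg, at a GC content of 48.4%, then had the largest log2 ratio of the 9 in size, -0.88, at percentile 14.3 of all genes, and was not called either.

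Nrg1 (chr8:31814551-32884029, minus strand), the neuregulin ligand of Erbb3 and Erbb4, was the lowest ligand in both libraries. It was at 0.90 TPM in library 2 and 0.37 TPM in library 1 (0.635 ± 0.375), from 25 expected counts in library 2 and 17 in library 1. On the nuclear protein-coding scale it was at 1.19 TPM in library 2 and 1.18 TPM in library 1. The log2 ratio of scaled counts was 0.11 ± 0.45 (adjusted p = 0.917, exact binomial test), so no difference was detectable at this depth. The deposited tables hold 1 Nrg1 transcript, of 2103 bases, against 2100 coding bases in GENCODE M21. It thus has almost no untranslated sequence, and the part of this in the low level of Nrg1 was not tested.

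Summed over the 6 ligands, levels were 39.3 TPM in library 2 and 28.5 TPM in library 1. The direction turned on the nuclear scale, at 52.1 nuclear TPM in library 2 and 91.1 in library 1, and summed counts were 1427 in library 2 and 1737 in library 1. The receptors outweighed them by 5.86 times in library 2 and 2.42 times in library 1. The leading ligand changed. Tgfa made up 36.4% of ligand TPM in library 2 and 12.7% in library 1, while Btc made up 14.3% in library 2 and 33.99% in library 1. Areg made up 19.3% in library 2 and 26.3% in library 1, and Ereg 5.07% in library 2 and 14.6% in library 1. Hbegf made up 22.6% in library 2 and 11.0% in library 1, and Nrg1 2.29% in library 2 and 1.30% in library 1. The 3 ligands of chromosome 5 thus had larger shares in library 1, and Tgfa, Hbegf and Nrg1 had larger shares in library 2.

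**Figure D2:**
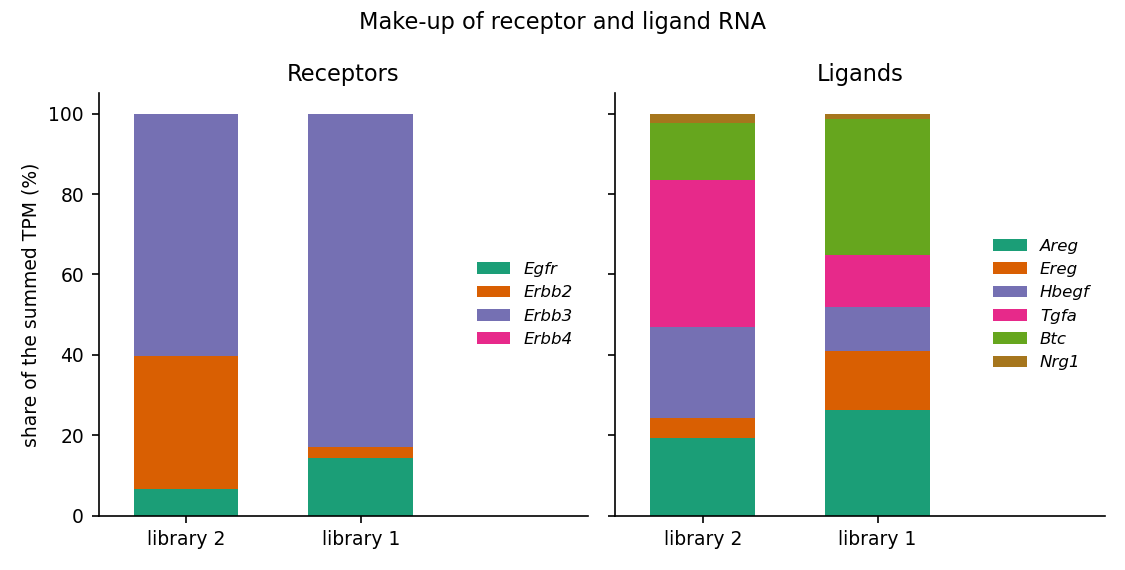
Share of each receptor in the summed TPM of the 4 receptors (left) and of each ligand in that of the 6 ligands (right), with library 2 left of library 1. Erbb3 fills 60.2% of the receptor bar in library 2 and 83.0% in library 1, and Tgfa and Btc trade places among the ligands.

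The order of levels was read within each library with the authors' 95% posterior intervals for TPM. These lie around the authors' posterior mean and not around the deposited TPM quoted above, and they can miss the latter. For Erbb3 in library 2 the interval was 128 to 133 TPM, with a posterior mean of 131 TPM and a deposited level of 139 TPM. Of the 45 pairs of genes, 26 stood apart in the same order in both libraries, 10 stood apart in opposite orders, and 9 had intervals that overlapped in at least 1 library. Erbb2 was in 6 of the 10 pairs that turned round, with Egfr and with Areg, Ereg, Hbegf, Tgfa and Btc. In library 2 the intervals of Egfr and Tgfa overlapped, as did those of Hbegf and Areg and of Areg and Btc. In library 1 those of Egfr and Btc, of Ereg and Tgfa and of Tgfa and Hbegf overlapped. The intervals of Nrg1 and Erbb4 overlapped in both libraries, and that of Erbb4 also met the interval of Ereg in library 2 and that of Erbb2 in library 1. The posterior mean of Erbb4 was 1.08 TPM in library 2 and 0.74 TPM in library 1. Its deposited level was 0.01 TPM in library 2 and 0.02 TPM in library 1. These overlaps therefore do not show that Erbb4 was at a level like those of Nrg1, Ereg or Erbb2. The interval of Erbb4 reached 2.94 TPM in library 2 and 2.00 TPM in library 1, and that of its shortest transcript, of 240 bases with 0 counts in both libraries, reached 2.75 TPM in library 2 and 1.87 TPM in library 1.

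Counted together, 1 of the 9 members tested was higher in library 2 (Erbb2), where 36.9% of all 15711 genes tested were. Egfr, Areg, Ereg and Btc, 4 of the 9, were lower, where 28.1% of all genes were, and the remaining 4 were not called. The share called in either direction was 65.0% over all genes, so 5 of 9 members is near the background. With an assumed coefficient of variation of 0.4 between libraries, 1 member was higher (Erbb2) and 1 lower (Ereg), where 24.1% of all genes were higher and 4.77% lower. The median log2 ratio was 0.10 for the 9 members and 0.12 for all genes. All 9 members had a mean count of at least 10 over both libraries, and Erbb4 did not. With the GC trend taken off, 0 of the 9 members were higher and 0 lower, against 12.4% and 11.0% of all genes. At an adjusted p alone, without the 2-fold minimum, 4 were higher and 4 lower in library 2 before the trend was taken off, where 46.1% of all genes were higher and 41.6% lower.

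**Figure D3:**
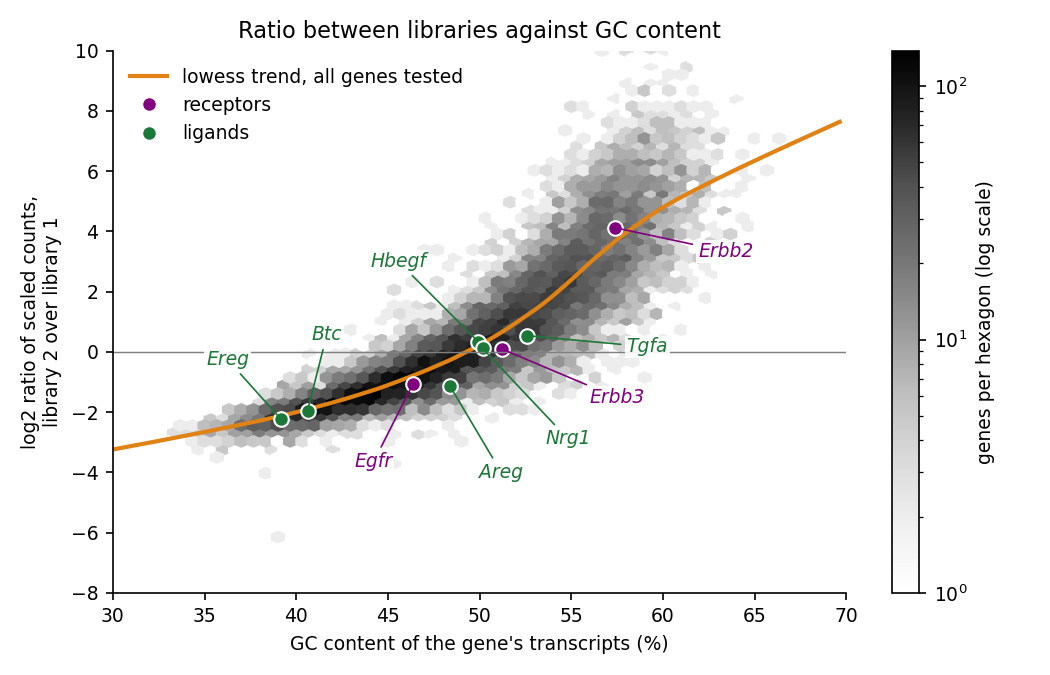
Log2 ratio of scaled counts, library 2 over library 1, against the GC content of each gene's transcripts; grey hexagons hold the genes tested, the orange line is their lowess trend, and coloured points are the 3 receptors and 6 ligands tested. Members lie within 2-fold of the trend, from Ereg at 39.2% GC and a log2 ratio of -2.24 to Erbb2 at 57.4% and 4.12.

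Areg, Ereg and Btc lie in the same stretch of chromosome 5 with epigen (Epgn), a further Egfr ligand. In GENCODE M21, Epgn ends 39.4 kb before Ereg, Ereg 46.0 kb before Areg and Areg 209 kb before Btc, with 0 protein-coding genes annotated wholly within each gap. Epgn, Ereg and Areg are on the plus strand and Btc on the minus strand. The levels of the 4 neighbours were not alike. Epgn had 3 expected counts in each library, or 0.13 TPM in library 2 and 0.08 TPM in library 1. Its nuclear TPM was 0.173 in library 2 and 0.255 in library 1. Btc stood at 2.83 times the TPM of Ereg in library 2 and 2.32 times in library 1.

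Only Egfr, Erbb2, Erbb4 and Tgfa have more than 1 transcript in the deposited tables. Among Egfr, Erbb2 and Tgfa, the make-up of Egfr differed most. Egfr-201, the transcript of 10208 bases that encodes the full receptor, made up 56.9% of the gene's TPM in library 2 and 90.9% in library 1 (73.9 ± 24.0%). Egfr-202, of 2943 bases, made up 28.3% in library 2 and 6.98% in library 1 (17.7 ± 15.1%). It had an estimated 169 expected counts in library 2 and 45.5 in library 1, and its TPM intervals, 3.13 to 5.04 in library 2 and 0.461 to 0.893 in library 1, did not overlap. Egfr-201 itself had 8.56 TPM in library 2 and 8.93 TPM in library 1, while its counts were 1233 in library 2 and 2156 in library 1, a log2 ratio of scaled counts of -1.23. The GC content was 50.6% for Egfr-202 and 44.4% for Egfr-201.

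The coding sequences of Egfr-201 and Egfr-202 match over their first 1926 bases and then part, which is where the products differ. Below, lower case is the last shared stretch and capitals the first bases of each transcript's own sequence.
Egfr-201: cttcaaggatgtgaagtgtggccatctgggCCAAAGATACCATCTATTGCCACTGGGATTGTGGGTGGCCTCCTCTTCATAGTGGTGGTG
Egfr-202: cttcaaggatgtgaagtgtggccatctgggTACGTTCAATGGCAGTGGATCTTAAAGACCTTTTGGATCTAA
The Egfr-201 stretch spans chr11:16887157-16889973 and crosses an intron, and the Egfr-202 stretch is the unbroken run chr11:16887157-16887228, both on the plus strand of GRCm38. Egfr-202 has 42 coding bases of its own and ends there with a stop codon, whereas Egfr-201 goes on for 1707 coding bases through the membrane-spanning segment and the kinase. The short product therefore keeps the ligand-binding part and lacks the membrane anchor, as background from the annotation. The split of reads between these transcripts is an estimate of the authors' model, and no test was run on it.

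Erbb2-201, the coding transcript, made up 91.3% of Erbb2 TPM in library 2 and 100% in library 1. Erbb2-202, a processed transcript with no coding sequence, had 306 estimated counts in library 2 and 0 in library 1. For Tgfa, the coding Tgfa-201 made up 80.9% in library 2 and 98.9% in library 1, and the short Tgfa-202, of 410 bases and 63.2% GC, made up 17.7% in library 2 and 0% in library 1. That share rests on 8.42 estimated counts in library 2 on a short transcript. For Erbb4 the single count of library 2 was placed on Erbb4-201 and the 5 counts of library 1 on Erbb4-202, too few to describe a make-up.

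**Figure D4:**
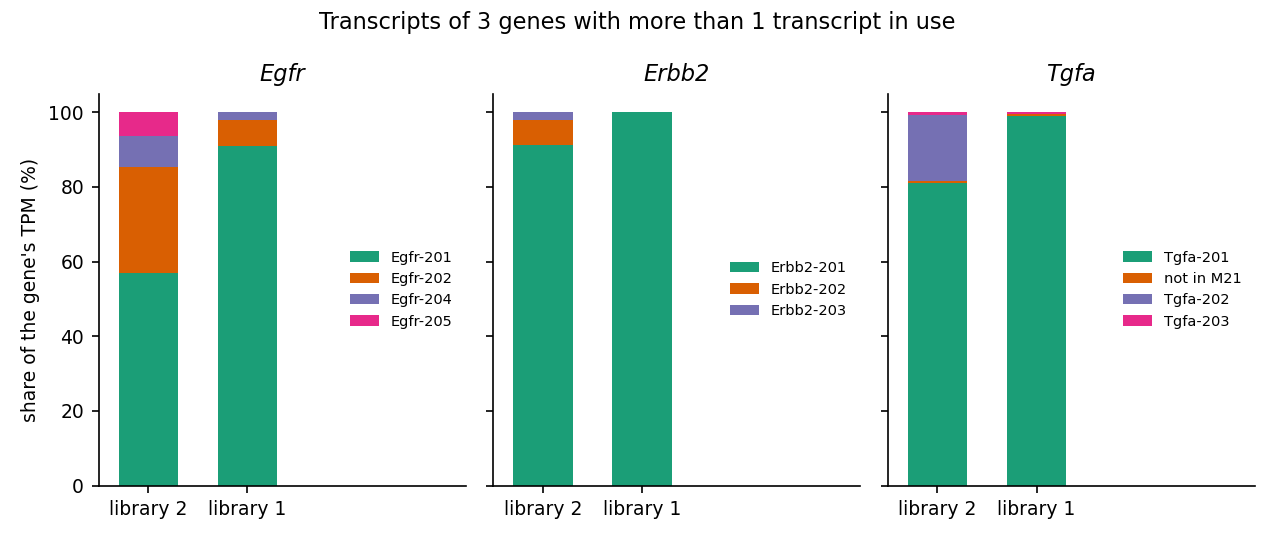
Share of each transcript in the TPM of Egfr, Erbb2 and Tgfa as deposited, with library 2 left of library 1. Egfr-202 is at 28.3% in library 2 and 6.98% in library 1.

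The rest of the pathway was read from lists of 62 genes, of which 60 could be tested. Among these, 15 were called higher and 17 lower in library 2, 28 were not called, and the median log2 ratio was 0.07. With the GC trend taken off, 4 were higher and 7 lower, and the median was -0.19 against -0.01 for all genes. Over all genes tested 36.9% were higher and 28.1% lower before that step, and 12.4% higher and 11.0% lower after it, and these shares are the background of each list that follows.

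Of the 5 other ligands of the family, none was abundant, and of the 3 tested 0 were higher and 0 lower. These counts were the same with the GC trend taken off. Egf, the founding ligand, was at 3.19 TPM in library 2 and 1.03 TPM in library 1. Nrg4, an Erbb4 ligand, was at 2.10 TPM in library 2 and 0.46 TPM in library 1. Nrg3 was at 0.15 TPM in library 2 and 0.14 TPM in library 1. Its nuclear TPM was 0.199 in library 2 and 0.447 in library 1.

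Of the 7 genes of ligand release, 2 were higher in library 2 and 3 lower with a median log2 ratio of -0.44. Rhbdl2, a rhomboid protease, was at 122 TPM in library 2 and 63.5 TPM in library 1 (162 nuclear TPM in library 2 and 203 in library 1) and did not pass. Adam10, the protease that sheds betacellulin, was at 43.4 TPM in library 2 and 71.8 TPM in library 1 and lower by scaled counts (log2 ratio -1.91). Adam9 was at 41.3 TPM in each library and also lower (-1.17). Adam17, the main ligand sheddase, was the third gene lower (-1.10). Rhbdf2, a partner of Adam17, was higher with 527 counts in library 2 against 4 in library 1, a log2 ratio of 6.44. Once the GC trend was taken off, Rhbdf2 stood at 2.06, Adam10 at -0.24, Adam9 at -0.22 and Adam17 at -0.07, and 1 of the 7 was higher and 0 lower.

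Of the 8 receptor brakes, 2 were higher and 2 lower (median -0.43). Lrig1, a membrane protein of crypt stem cells that drives receptor breakdown, was at 53.2 TPM in library 2 and 5.72 TPM in library 1 (log2 ratio 2.04, or -0.43 with the GC trend taken off, a change of sign). Errfi1, a feedback inhibitor that binds the receptor kinase, was at 46.3 TPM in library 2 and 33.9 TPM in library 1 (61.5 nuclear TPM in library 2 and 108 in library 1), and Lrig3 at 28.3 TPM in library 2 and 7.87 TPM in library 1, and neither passed. Lrig2 was lower (log2 ratio -1.09; 0.05 with the GC trend taken off, a change of sign). None of the 8 was higher or lower once the trend was taken off.

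Of the 9 adaptors, 2 were higher and 2 lower (median 0.36). With the GC trend taken off, 0 were higher and 1 lower. Grb7, an adaptor encoded near Erbb2 on chromosome 11, was at 87.9 TPM in library 2 and 2.67 TPM in library 1 (log2 ratio 3.98; 0.77 with the GC trend taken off). Grb2, which links receptors to Ras, was at 59.0 TPM in library 2 and 39.7 TPM in library 1 (78.3 nuclear TPM in library 2 and 127 in library 1), and Shc1 was at 44.7 TPM in library 2 and 10.8 TPM in library 1, and neither passed. Sos1, the Ras exchange factor, was lower (log2 ratio -1.86; -0.01 with the GC trend taken off).

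The ERK cascade, the kinase chain that carries the signal to the nucleus, had 3 of 10 genes higher and 4 lower (median -0.06). Mapk3, which encodes ERK1, was at 311 TPM in library 2 and 13.1 TPM in library 1 (log2 ratio 4.72). Map2k1 was at 149 TPM in library 2 and 58.9 TPM in library 1 and did not pass, and Map2k2 was higher with 1845 counts in library 2 against 8 in library 1 (7.33). With the GC trend taken off, 2 of the 10 were higher and 0 lower, with Mapk3 at 1.06 and Map2k2 at 2.21.

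The PI3K branch, which carries survival signals, had 3 of 9 genes higher and 5 lower (median -1.21). Akt1 was at 99.5 TPM in library 2 and 2.47 TPM in library 1 (log2 ratio 4.18), and Pik3r1, a regulatory subunit, at 32.6 TPM in library 2 and 60.1 TPM in library 1 (-1.43). Pik3r2 was higher with 1065 counts in library 2 against 8 in library 1 (6.54). Of the 9, 1 was higher and 0 lower with the GC trend taken off, at 1.38 for Pik3r2, -0.46 for Akt1 and -0.26 for Pik3r1.

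Genes that ERK signalling is known to switch on, several of which feed back on it, had 3 of 14 higher, 1 lower and 10 not passing (median 0.18). Fos, an immediate early transcription factor, was at 145 TPM in library 2 and 54.9 TPM in library 1. The ERK phosphatase Dusp6 was at 37.2 TPM in library 2 and 30.8 TPM in library 1 (49.3 nuclear TPM in library 2 and 98.2 in library 1), and Spred2 at 28.0 TPM in library 2 and 15.5 TPM in library 1 (37.1 nuclear TPM in library 2 and 49.5 in library 1), and none of these passed. Etv4 was higher with 254 counts in library 2 against 6 in library 1, at a log2 ratio of 4.86, and Spred1 was lower (-2.18). With the GC trend taken off, 0 of the 14 were higher and 6 lower, with a median of -0.85. Over all genes 12.4% were then higher and 11.0% lower. Etv4 then stood at 0.59 and Spred1 at -0.38, neither of them called. Spred2 was 1 of the 6 lower, at -1.32.

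**Figure D5:**
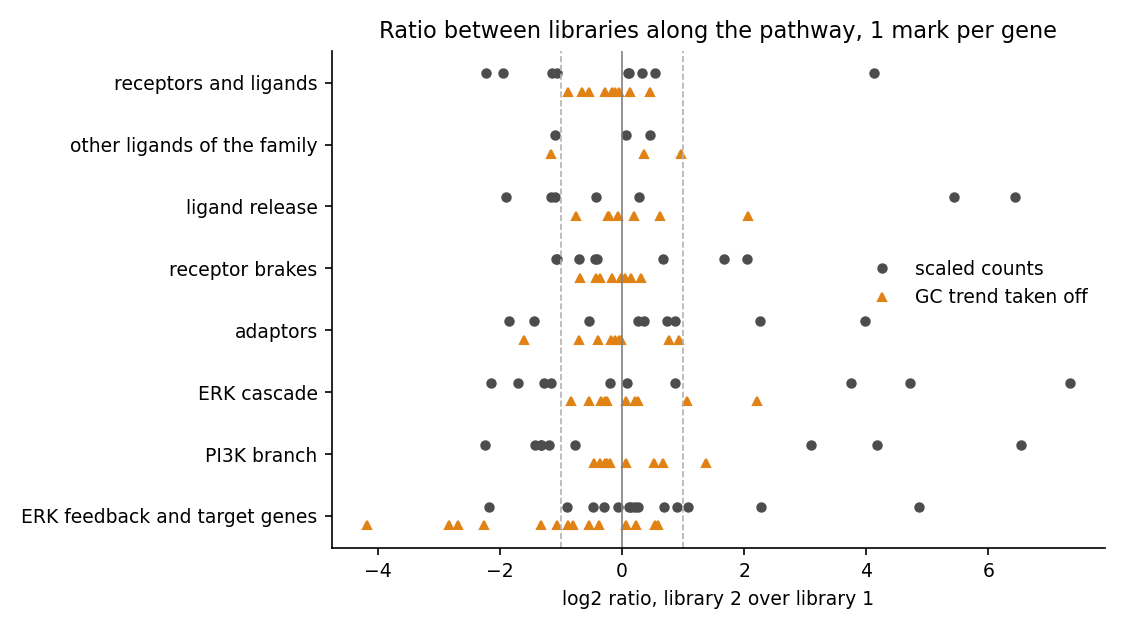
Log2 ratio, library 2 over library 1, of each tested gene of the receptor and ligand set and of the pathway lists, by scaled counts (grey circles) and with the GC trend taken off (orange triangles); dashed lines mark 2-fold. The 9 receptors and ligands span -2.24 to 4.12 before the trend is taken off and lie within 2-fold after it.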

How the data were processed

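Per the file headers, the deposited gene and transcript tables hold expected counts (estimated counts), TPM and FPKM, posterior TPM with 95% intervals as read here, and each transcript's percent of its gene. Per the text files deposited beside them, they were made on mm10 with GENCODE M4. For the aligner, the quantifier, their versions and the strand setting, the sources used here name nothing. FPKM values the authors deposited were not used in any result. Symbols came from a gene name table, and positions, gene types, GC content and sequences from GENCODE M21 on GRCm38, the same assembly. No protein sequences were used here. GC content was averaged over each gene's M21 transcripts, weighted by TPM, and could be had for 99.7% of tested genes. The main transcripts of Areg, Ereg, Tgfa and Nrg1 differ in length between M4 and M21.

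Expected counts were rounded and scaled by TMM (edgeR 4.0.16, R 4.3.3; library 2 over library 1 was 1.35). With 1 library on each side edgeR's quasi-likelihood test has no residual degrees of freedom. Genes with a mean count of at least 10 were compared by a two-sided exact binomial test (scipy 1.17.1), adjusted by Benjamini-Hochberg over all genes tested, and called where the adjusted p was below 0.05 and the change reached 2-fold, with a prior count of 0.5. The test was run on simulated Poisson counts with 200 changed genes. It recovered 90.4% of changes at a log2 size of 1.5 and 95.3% at 2. Those counts had no spread beyond counting error and no GC trend, so the run cannot give error rates for these libraries. The GC and length trends are lowess curves (statsmodels 0.14.6, fraction 0.2). Alternatives were DESeq2 1.42.0 size factors, other scales and filters, assumed coefficients of variation of 0.1 and 0.4, and GC or length trends taken off. All intervals cover counting or model error only. From each pathway list were named the 3 genes with the highest mean TPM and the called gene with the largest change each way, and any gene below 0.1 TPM in both libraries, of which there was none; some genes this rule picks are not reported here. Members and lists were chosen with earlier results of these data known. Outside that rule, Epgn and Mien1 were named for their position and Adam17 as the partner of Rhbdf2, the last after its value was seen.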

Additional observations from a re-analysis of the deposited data

How the results depend on the processing

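No paired analysis was possible because both libraries form 1 group of 1 mouse. With 2 libraries, a level without library 1 or without library 2 is the other library's own value, given above. The counts of members higher and lower in library 2 (1 and 4) were unchanged under DESeq2 size factors, nuclear protein-coding library sizes, no filter on low counts, a mean count of at least 50 (which drops Nrg1) and an assumed coefficient of variation of 0.1. By the ratio of TPM with a fold minimum alone they were 5 higher and 1 lower (54.4% and 5.29% of all genes), by adjusted p alone 4 and 4 (46.1% and 41.6%), with the GC trend taken off 0 and 0 (12.4% and 11.0%), with an assumed coefficient of variation of 0.4 1 and 1 (24.1% and 4.77%), and with the length trend taken off 1 and 3 (31.3% and 34.7%). Pathway genes higher and lower were 4 and 7 with the GC trend taken off.

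Log2 ratios turned to 0.61 for Egfr and 0.00956 for Areg by the ratio of TPM, to -0.55 for Erbb3, -0.67 for Tgfa and -0.17 for Nrg1 with the GC trend taken off, and to -0.14 for Hbegf and -0.41 for Nrg1 with the length trend taken off. Mean levels on the nuclear protein-coding scale moved beyond the SD to 25.7 TPM for Egfr, 183 for Erbb3, 0.0386 for Erbb4, 17.0 for Areg, 7.99 for Ereg, 10.9 for Hbegf, 19.2 for Btc and 1.19 for Nrg1. Posterior means moved Erbb4 to 0.91 TPM and Areg to 7.24 TPM. By counts the mean ligand share of Areg was 9.16%. Over all genes tested, 5797 were higher and 4418 lower; these counts were 3783 and 749 with an assumed coefficient of variation of 0.4, 1936 and 1717 with the GC trend taken off, and 8546 and 831 by the ratio of TPM. With the length trend taken off, Areg stood at -2.46. The causes were not tested. Depth limits Erbb4 and Nrg1 most.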

Other observations

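Some related genes of the pathway differed in their TPM ratio between the libraries. These pairs were chosen after their values were seen, and the part of GC content in their ratios was not tested. Pik3r2 stood at 0.964 times the TPM of Pik3r1 in library 2 and at 0.00799 times in library 1, with GC contents of 61.1% for Pik3r2 and 44.7% for Pik3r1. Akt1 and Akt2, at GC contents of 59.6% and 55.1%, kept a closer ratio, with Akt1 at 2.97 times Akt2 in library 2 and 1.94 times in library 1. Map2k2 stood at 0.614 times the TPM of Map2k1 in library 2 and at 0.00849 times in library 1.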
